A study of Mus musculus with 3 samples.

Results

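The genes Npy, Vip and Cck encode neuropeptide Y, vasoactive intestinal peptide and cholecystokinin. The members were taken by name, as every row of the 3 marker tables that holds one of these symbols, and all 3 genes were found. They filled 8 of 2750 rows and made up 3 of the 1039 different genes listed, over 5 of 55 clusters. Nuclei came from punches of 500 µm through 200 µm sections of the lateral septum of 8 naïve male C57BL/6J mice aged 3 months, and the pooled nuclei, sorted by fluorescence, gave 3 libraries of nuclear RNA. Neither a transgene nor a treatment is named in the labels, and the 3 libraries form 1 group, so the comparisons are of each cluster with the other nuclei of its table. The tables hold cluster averages made by the authors and not values per library or mouse. Differences between values therefore have no replicate error, and none of them was tested. Punches could include parts of the medial and triangular septum, prefrontal cortex or striatum, per the labels' protocols.

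Each of these peptides is cut from a longer precursor in secretory granules, receives an amide at its end from the enzyme encoded by Pam, and acts on receptors coupled to G proteins. In the forebrain, interneurons that arise in the medial ganglionic eminence often make neuropeptide Y together with somatostatin, and interneurons of the caudal ganglionic eminence often make vasoactive intestinal peptide or cholecystokinin. Cholecystokinin is also made by many excitatory neurons of the cortex and hippocampus. Neuropeptide Y dampens transmitter release and promotes feeding, vasoactive intestinal peptide marks interneurons that inhibit other interneurons, and cholecystokinin is known for satiety signalling from the gut.

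The promoters of the 3 genes are shown because Npy and Vip share 2 listing clusters while Cck is listed with either interneuron genes or excitatory neuron genes. Npy lies on chromosome 6 from 49822710 to 49829507 on the plus strand and has 4 exons. Vip lies on chromosome 10 from 5639218 to 5647617 on the plus strand and has 7 exons. Cck occupies 121489824 to 121495694 of chromosome 9, on the minus strand, with 3 coding transcripts of 2 to 4 exons (GRCm38, GENCODE M21). No other annotated gene overlapped any of them. The 250 bases before each transcription start, from RefSeq on GRCm38.p6, read 5′ to 3′ on the gene's strand, are at chr6:49822460-49822709 for Npy, chr10:5638968-5639217 for Vip and chr9:121495695-121495944 for Cck. Capitals mark matches to 5 short motifs searched on both strands, which are the half-site TGACG of the cyclic AMP response element, its full palindrome TGACGTCA, the TATA box TATAAA, the GC box GGGCGG and the E-box CACGTG.
Npy: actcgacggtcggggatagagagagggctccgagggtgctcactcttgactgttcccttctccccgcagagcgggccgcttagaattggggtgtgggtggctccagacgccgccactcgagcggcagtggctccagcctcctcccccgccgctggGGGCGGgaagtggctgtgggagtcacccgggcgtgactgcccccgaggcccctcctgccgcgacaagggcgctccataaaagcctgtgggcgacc
Vip: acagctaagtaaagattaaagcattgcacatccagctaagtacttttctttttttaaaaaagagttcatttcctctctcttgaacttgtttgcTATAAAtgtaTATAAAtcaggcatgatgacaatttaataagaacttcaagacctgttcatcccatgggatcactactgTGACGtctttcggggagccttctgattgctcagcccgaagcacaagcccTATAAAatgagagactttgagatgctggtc
Cck: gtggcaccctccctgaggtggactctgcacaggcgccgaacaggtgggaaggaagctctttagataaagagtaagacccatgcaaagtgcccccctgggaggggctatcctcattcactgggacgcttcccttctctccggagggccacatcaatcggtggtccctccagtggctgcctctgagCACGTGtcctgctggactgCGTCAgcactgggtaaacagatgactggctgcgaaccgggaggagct

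The half-site TGACG was found in the Vip promoter, 79 bases before the start, and in the Cck promoter, 47 bases before it on the opposite strand. It was present in 17.8% of 32851 promoter windows of the same length. The full palindrome, present in 1.55% of windows, was found in none of the 3. In Vip, TATAAA was found at 157, 147 and 30 bases before the start, and 12.4% of windows held it. A GC box lay 95 bases before the start of Npy, as in 32.7% of windows, and an E-box 66 bases before that of Cck, as in 6.02%. No motif of the 5 was found in both Npy and Vip, the pair listed together in 2 clusters. GC content was 69.2% for Npy, 60% for Cck and 38.4% for Vip, against a median of 52.4% over all windows. The motifs were chosen with the sequences in view, and a match describes letters only.

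Npy, Vip and Cck were listed for a small set of clusters, and at most 28.6% of a cluster's nuclei had any one of them detected. Npy had 4 rows, Vip 2 and Cck 2. Npy in the authors' deposited table of broad clusters was detected in 22.5% of the nuclei of cluster 16 against 1.0% of all others, with a log2 fold change of 6.63. Among GABA neurons, the authors' deposited table gave Npy detection in 26.5% of subcluster 17 against 1.1% outside (6.43) and in 17.5% of subcluster 19 against 1.3% outside (4.24). Npy was therefore the member listed for more than 1 GABA subcluster, and its detection was higher in subcluster 17. For nuclei labelled Sst, after the somatostatin gene, the authors' deposited table had Npy detected in 26.5% of subcluster 6 against 0.8% outside and had the largest log2 fold change of the 50 genes listed there, at 7.70.

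Vip was listed for broad cluster 16 and GABA subcluster 19. In the authors' deposited table it was detected in 9.7% of broad cluster 16 against 0.3% outside (log2 fold change 6.34), and in 23.1% of GABA subcluster 19 against 0.3% outside (7.78). Its detection outside was the lowest of the 3 genes. Cck was listed for broad cluster 7 and GABA subcluster 19, which shared 2 of their 50 listed genes, Cck and Dab1, a gene of the reelin pathway. Detection of Cck in the authors' deposited table was 26.8% in broad cluster 7 against 2.5% outside (3.46) and 28.6% in GABA subcluster 19 against 1.7% outside (5.76). Detection of Cck inside was thus alike in the pair of clusters while its log2 fold change differed by more than 2 units. GABA subcluster 19 was the only cluster of the 55 to list all 3 genes. Each cluster lists 50 genes, so a gene that is not listed may differ as well, and the tables give no level for it there.

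**Figure D1:**
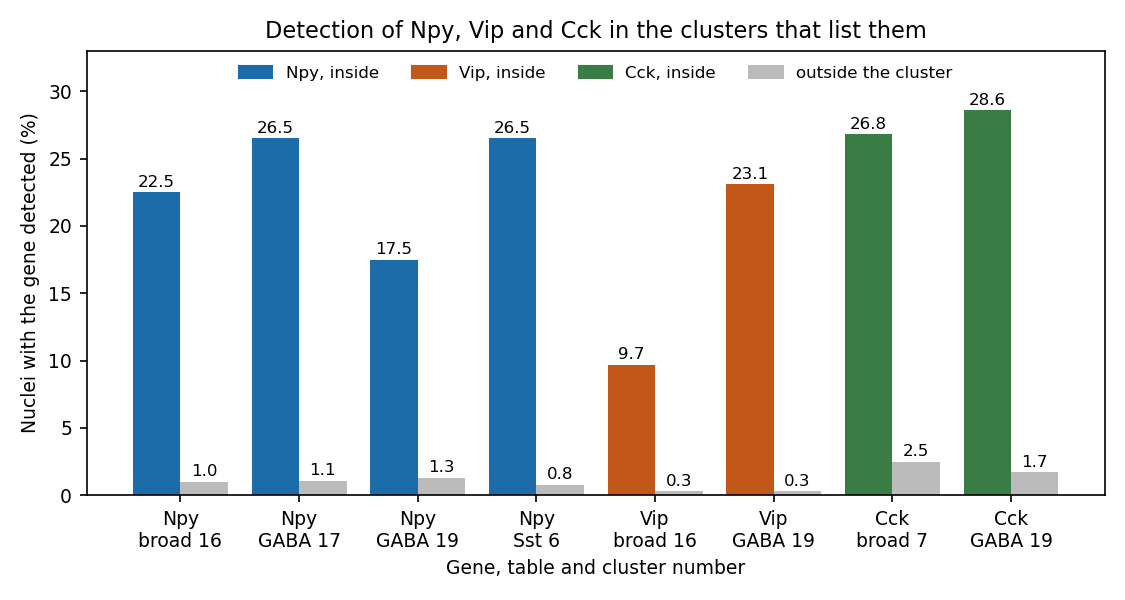
Percentage of nuclei in which Npy, Vip and Cck were detected, inside (coloured bars) and outside (grey bars) each cluster that lists the gene, from the authors' deposited table; single values without replicate error. Inside values run from 9.7% for Vip in broad cluster 16 to 28.6% for Cck in GABA subcluster 19, and outside values from 0.3% to 2.5%.

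In 4 of the 5 listing clusters, most nuclei had no detected transcript of the peptides listed there, and for GABA subcluster 19 the tables do not settle this. If no nucleus of GABA subcluster 19 had more than 1 of the 3 genes, 69.2% of its nuclei would have had one, so at least 30.8% had none. At least 67.8% of broad cluster 16 had neither Npy nor Vip, and 73.5% of GABA subcluster 17 had no Npy. For comparison, the median listed gene was detected in 39.8% of broad cluster 16, 40.8% of GABA subcluster 17 and 28.2% of GABA subcluster 19. Nuclei that lack a peptide transcript and nuclei in which it was missed cannot be told apart here.

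By log2 fold change the 3 genes stood high in most lists, and by difference in detection they stood from near the middle to the bottom. Npy ranked 3 of 50 in broad cluster 16, 2 in GABA subcluster 17 and 1 in Sst subcluster 6, but 22 in GABA subcluster 19. Vip ranked 4 of 50 in broad cluster 16 and also in GABA subcluster 19. Cck ranked 10 in GABA subcluster 19 and 9 in broad cluster 7. By the difference in detection, the ranks were 21 to 50. Npy ranked 27 in broad cluster 16, GABA subcluster 17 and Sst subcluster 6, and 41 in GABA subcluster 19. Vip ranked 29 in GABA subcluster 19 and 44 in broad cluster 16. Cck ranked 21 in GABA subcluster 19 and came last of the 50 in broad cluster 7.

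The share of a table's nuclei that each cluster holds was recovered from the detection values, and with it the part of a gene's detecting nuclei that lies in the cluster. Broad cluster 16 held 2.02% of all nuclei, 31.7% of those with detected Npy (30.6% to 32.8% from rounding of the deposited percentages) and 40.0% of those with detected Vip (36.2% to 44.5%). These intervals hold the recovered cluster share fixed and leave out its own error. GABA subcluster 19 held 1.08% of GABA nuclei, 45.7% of those with Vip (41.8% to 50.3%), 15.5% of those with Cck (15.1% to 15.9%) and 12.8% of those with Npy (12.4% to 13.3%). Vip was thus the member most concentrated in that subcluster. GABA subcluster 17 held 1.57% of GABA nuclei and 27.7% of those with Npy (26.8% to 28.7%). Subclusters 17 and 19 together held 40.6% of the GABA nuclei with Npy, which leaves 59.4% in subclusters whose lists do not name it, at an average detection of 0.906%. Among the nuclei labelled Sst, subcluster 6 held 5.19% of the nuclei and 64.4% of those with Npy (63.0% to 65.9%). How much of the low detection elsewhere was free RNA was not tested.

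**Figure D2:**
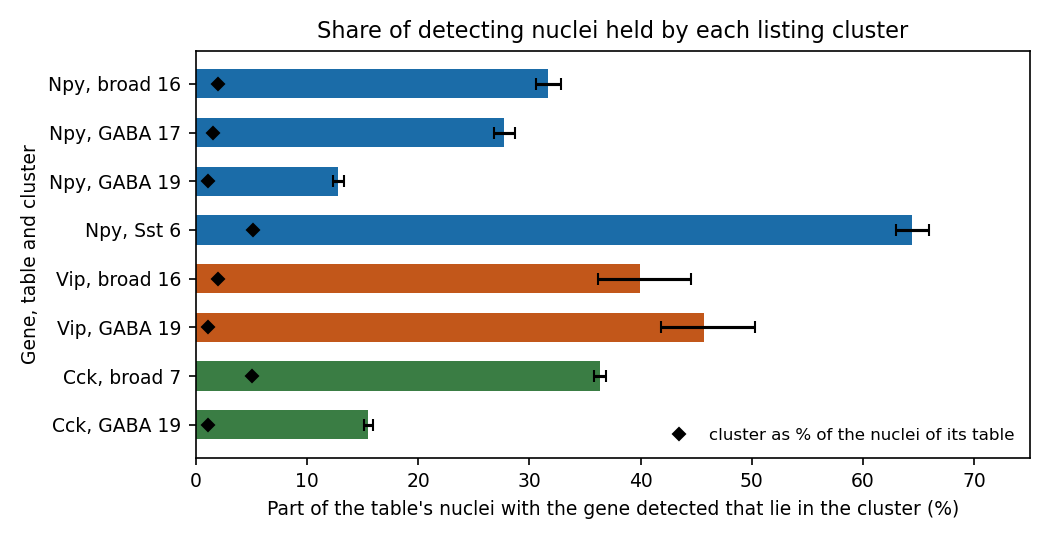
Percentage of a table's nuclei with detected Npy, Vip or Cck that lie in each listing cluster (bars), beside the share of all the table's nuclei held by the cluster (black diamonds). Intervals cover rounding of the gene's deposited percentages only, with the cluster share held fixed. The bars run from 12.8% for Npy in GABA subcluster 19 to 64.4% for Npy in Sst subcluster 6, and the diamonds from 1.08% to 5.19%.

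Among Npy, Vip and Cck, the gene detected in the most nuclei was Cck. Over all nuclei, Cck was detected in 3.73%, Npy in 1.43% and Vip in 0.490%. Broad cluster 7, with 5.06% of all nuclei, held 36.3% of the nuclei with Cck (35.8% to 36.9% from rounding). The GABA table covered 76.2% of all nuclei if broad cluster 16 equals GABA subclusters 17 and 19, and on that basis it held 79.0% of the nuclei with Npy, 85.0% of those with Vip and 40.7% of those with Cck. GABA subcluster 19 then accounted for 6.31% of all nuclei with Cck, other GABA nuclei for 34.4%, and nuclei outside both the GABA table and broad cluster 7 for the remaining 23.0%.

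The clusters listing Npy or Vip carried genes shared by many interneurons, though these genes were not particular to them. Of 15 genes shared by many forebrain interneurons, 6 were listed anywhere in the broad table and 4 of these in broad cluster 16, where the share of all the table's genes listed was 6.00%. They were the ErbB receptor gene Erbb4, the neurexin ligand gene Nxph1, the potassium channel gene Kcnc2 and the RNA-binding protein gene Elavl2. In GABA subcluster 17 the same 4 of 5 were listed, and in subcluster 19 all of these but Nxph1, against 7.09% of the GABA table's genes in each. Sst subcluster 6 listed Kcnc2, Elavl2 and Nxph1, all 3 of those in its table, against 14.2% of genes. All 4 genes were also listed for clusters that list none of the 3 peptides. In the broad table these included cluster 13 for Elavl2, 12 for Erbb4, 1 for Nxph1 and 21 for Kcnc2. Outside broad cluster 16, Erbb4 was detected in 59.6% of nuclei and Nxph1 in 53.3%, in the authors' deposited table. The gene lists were chosen with earlier results of the data known, and the counts carry no test.

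Markers of the medial and caudal ganglionic eminence fell mostly in different GABA subclusters among the pair that list the peptides. Leaving out Npy, which chose both subclusters, 13 medial eminence genes were listed in the GABA table. Of these, 7 were in subcluster 17, namely Sst, Cort, Crhbp, Moxd1, Maf, Sox6 and Satb1, and 1 was in subcluster 19, Maf. Each subcluster listed 7.09% of all the table's genes, and 1 of 13 is near that share. The transcription factor gene Sox6 in the authors' deposited table was detected in 67.6% of subcluster 17 against 6.2% outside (log2 fold change 4.72), and the chromatin organiser gene Satb1 in 37.8% against 5.2% (3.52). Cort, which encodes a peptide related to somatostatin, was detected in 18.2% against 0.4% (5.84), and Crhbp, whose product binds corticotropin-releasing hormone, in 19.9% against 0.5% (5.43), in the authors' deposited table. Leaving out Vip and Cck, 16 caudal eminence genes were listed in the GABA table, 9 of them in subcluster 19 and 0 in subcluster 17. Beside the share of 7.09%, the count of 0 of 16 says little about subcluster 17. The 9 in subcluster 19 were Tac2, Crh, Htr3a, Adarb2, Npas1, Igf1, Prox1, Kit and Nr2f2. Some of these genes were also listed elsewhere, such as Adarb2 for broad cluster 20, Nr2f2 for broad cluster 18 and Kit for GABA subcluster 6. Among the medial eminence genes, Sst was detected in 63.8% of GABA subcluster 20 and 45.2% of subcluster 17 in the authors' deposited table. Sox6 was also listed for broad clusters 8 and 20 and GABA subcluster 14, and Satb1 for broad clusters 13 and 23. In the authors' deposited table, Adarb2, a gene related to RNA-editing enzymes, was detected in 94.9% of subcluster 19 against 20.7% outside (6.02), and the transcription factor gene Prox1 in 20.5% against 0.5% (5.57). The growth factor gene Igf1 was detected in 27.8% against 0.6% (5.84) and the receptor tyrosine kinase gene Kit in 27.4% against 1.2% (5.25), in the authors' deposited table.

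Npy itself was listed in both of these subclusters. Htr3a, the gene of a serotonin-gated channel of caudal eminence interneurons, was listed for subcluster 19 from detection of 2.1% inside and 0% outside in the authors' deposited table. The broad table lists 5 astrocyte, 8 oligodendrocyte, 7 oligodendrocyte precursor and 11 medium spiny neuron markers, and 0 of these were in clusters 7 and 16. Each of these clusters lists 6.00% of the table's genes. In the GABA table, 10 medium spiny neuron and 2 astrocyte markers are listed and 0 were in subclusters 17 and 19, which each list 7.09% of its genes. Beside these shares, counts of 0 from such short lists say little. The GABA table lists no marker of oligodendrocytes or their precursors, and the Sst table lists only 3 markers of these cell types, so those tables say little about glia. Of the lateral septum marker list, Sst in GABA subcluster 17 was the single gene listed.

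**Figure D3:**
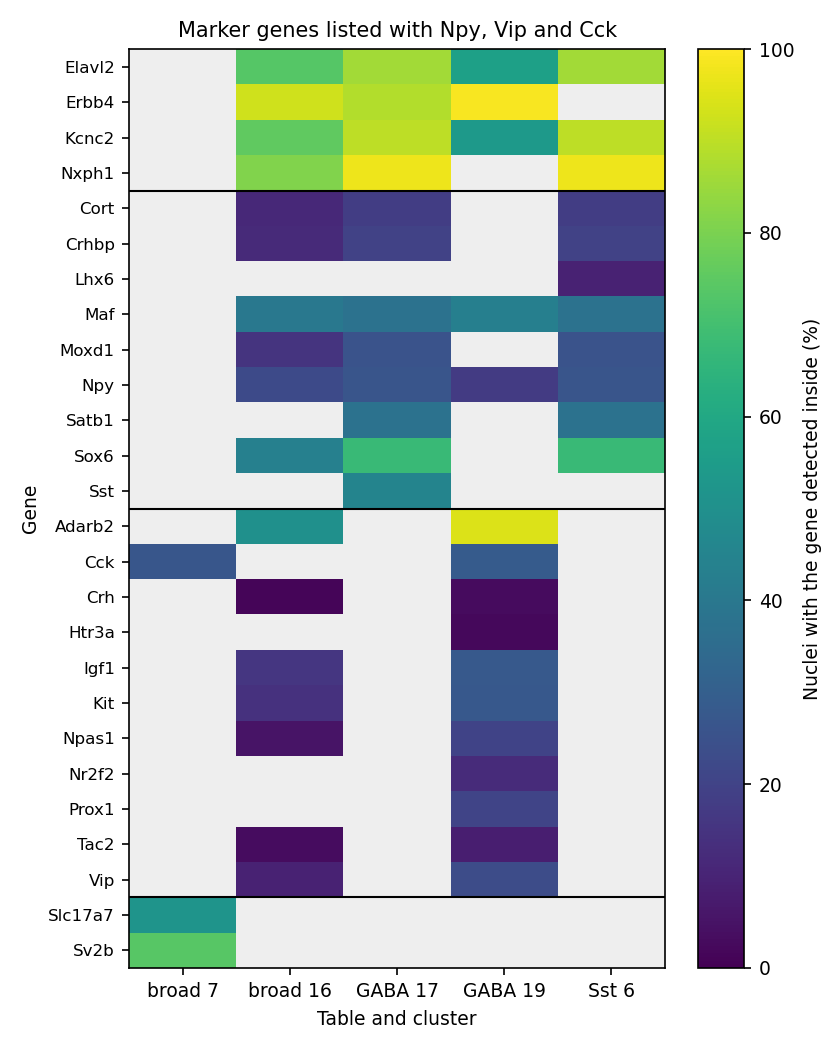
Detection inside each of the 5 clusters that list Npy, Vip or Cck, as a percentage of nuclei (colour), for listed members of the marker lists; light grey marks a gene not listed for that cluster. Black lines separate shared interneuron, medial eminence, caudal eminence and cortical excitatory neuron genes; Adarb2 reaches 94.9% in GABA subcluster 19 and Sox6 67.6% in GABA subcluster 17.

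Broad cluster 7 listed genes of excitatory neurons beside Cck, so the name of an interneuron peptide does not cover this row. The cluster listed 0 of the 6 shared interneuron genes in the table, which says little beside its share of 6.00% of all the table's genes. Against the same share, it listed 2 of the 8 cortical excitatory genes in the table. These in the authors' deposited table were the vesicular glutamate transporter gene Slc17a7 (log2 fold change 3.57, 51.8% against 5.0%) and the synaptic vesicle gene Sv2b (3.27, 74.1% against 11.3%). Slc17a7 was also listed for broad clusters 13, 17 and 23, and Sv2b for broad clusters 13 and 15. The leading genes of the cluster in the authors' deposited table were the secreted synaptic protein gene C1ql3 (5.06, 31.9% against 1.1%), the integrin gene Itga8 (4.41, 43.6% against 2.6%), the vesicular zinc transporter gene Slc30a3 (4.31, 26.0% against 1.6%) and the synaptotagmin gene Syt17 (4.25, 33.6% against 2.0%). Every one of its 50 genes was detected in at least 26.0% of its nuclei, so Cck at 26.8% stood near the bottom of that list. Cortex and other excitatory tissue can be present in the punches, and the part of such tissue in the Cck result was not tested.

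The fold change of a gene can come from more nuclei with a transcript or from more transcript per detecting nucleus. Taking the log2 fold change as a ratio of mean levels, its excess over the log2 ratio of detection is the log2 ratio of level per detecting nucleus. The pseudocount behind the deposited fold changes was not given in the sources used here, so this split is approximate. Cck in broad cluster 7 had an excess of 0.04, the lowest of 50 listed genes there, which corresponds to 1.03-fold per detecting nucleus (1.00 to 1.05 from rounding). Cck in GABA subcluster 19 had an excess of 1.69, or 3.23-fold (3.13 to 3.33), ranked 22 of 1081 rows of its table. The same peptide gene at nearly the same detection thus had a different level per detecting nucleus relative to the other nuclei of each table. The outside nuclei differ between the tables, and the difference was not tested.

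Npy showed the same kind of contrast within the GABA table. Its excess was 1.84 in subcluster 17, or 3.58-fold per detecting nucleus (3.41 to 3.75), and 0.49 in subcluster 19, or 1.40-fold (1.35 to 1.46). Nuclei of subcluster 17 are among those outside subcluster 19, so the second value is set against a group that includes the first. In Sst subcluster 6 the excess of Npy was 2.65, or 6.27-fold (5.87 to 6.68), the largest of 50 there and the second of 398 rows of the Sst table. Vip had an excess of 1.51 in GABA subcluster 19, or 2.86-fold (2.38 to 3.34), and of 1.33 in broad cluster 16, or 2.51-fold (2.08 to 2.94). The median excess over all rows of a table was 0.41 for the broad, 0.30 for the GABA and 0.28 for the Sst nuclei. Within the clusters that list Npy or Vip the median was higher. It was 0.72 in broad cluster 16, 0.62 in GABA subcluster 17, 0.61 in GABA subcluster 19 and 0.73 in Sst subcluster 6. Npy in GABA subcluster 19 thus lay below the median of its own subcluster, at rank 28 of 45.

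**Figure D4:**
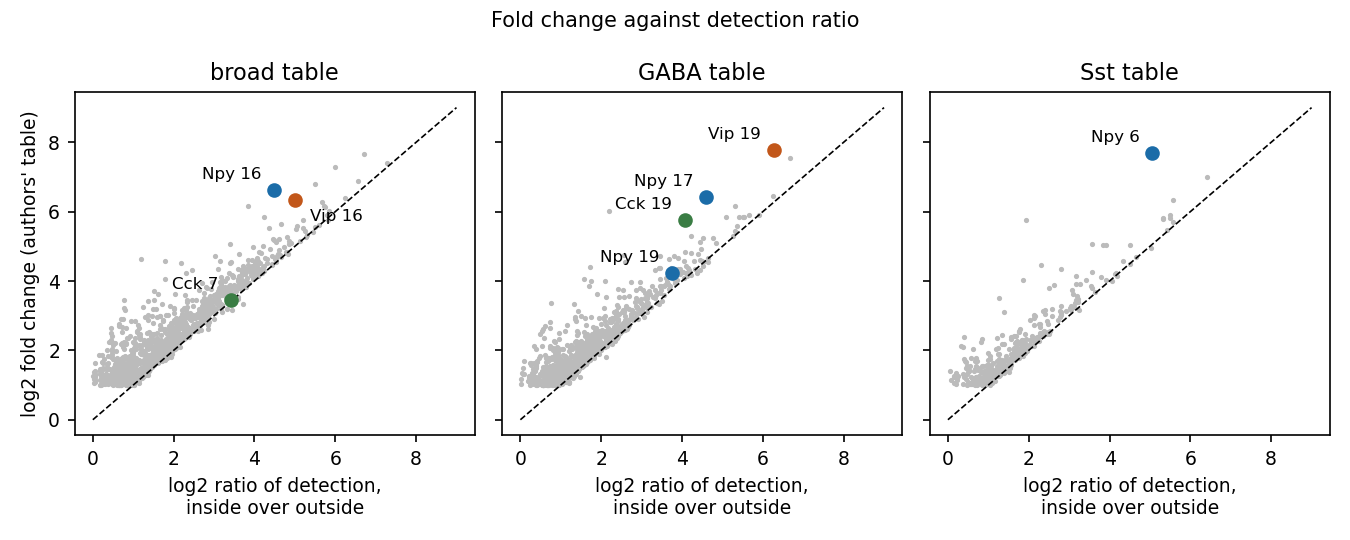
Log2 fold change in the authors' deposited table against the log2 ratio of detection inside over outside, for every row with detection above 0 outside (grey) and for Npy, Vip and Cck (coloured, with the cluster number). The dashed line marks equal values; Cck in broad cluster 7 lies 0.04 above it and Npy in Sst subcluster 6 lies 2.65 above it.

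The rows of the 3 tables overlap in nuclei, so the 8 rows are not 8 separate results. GABA subcluster 17 and Sst subcluster 6 shared 42 of 50 listed genes, and detection inside was equal to the last decimal for 39 of the 42, Npy among them. Broad cluster 16 shared 30 genes with GABA subcluster 17 and 29 with subcluster 19, while subclusters 17 and 19 shared 14. For all 14 genes listed for broad cluster 16 and for both subclusters, detection in the broad cluster lay between the values of the subclusters. Least squares over 13 of these genes, without Npy, put the weight of subcluster 17 at 59.0%, and the recovered shares of the subclusters gave 59.2%. With that weight the expected detection of Npy in broad cluster 16 was 22.8%, against 22.5% in the authors' deposited table, and the largest difference over the 14 genes was 0.44 points.

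The same weights place Vip and Cck within broad cluster 16. Nuclei of subcluster 19 alone would give a Vip detection of 9.47% there, against 9.7% in the authors' deposited table, which leaves an implied 0.40% for subcluster 17. Tac2, a tachykinin gene, gave 3.48% expected from subcluster 19 against 3.5% in the authors' deposited table. For Cort the split ran the other way, with 10.7% expected from subcluster 17 of the 11.6% in the authors' deposited table. Cck is not listed for broad cluster 16. By the same weights subcluster 19 alone would give a Cck detection of 11.7% there, and 9 of the 50 listed genes of that cluster had lower detection. This value is an estimate and not a lower bound, since the same calculation gave 8.24% for Npas1, a transcription factor gene detected in 5.3% of broad cluster 16 in the authors' deposited table.

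**Figure D5:**
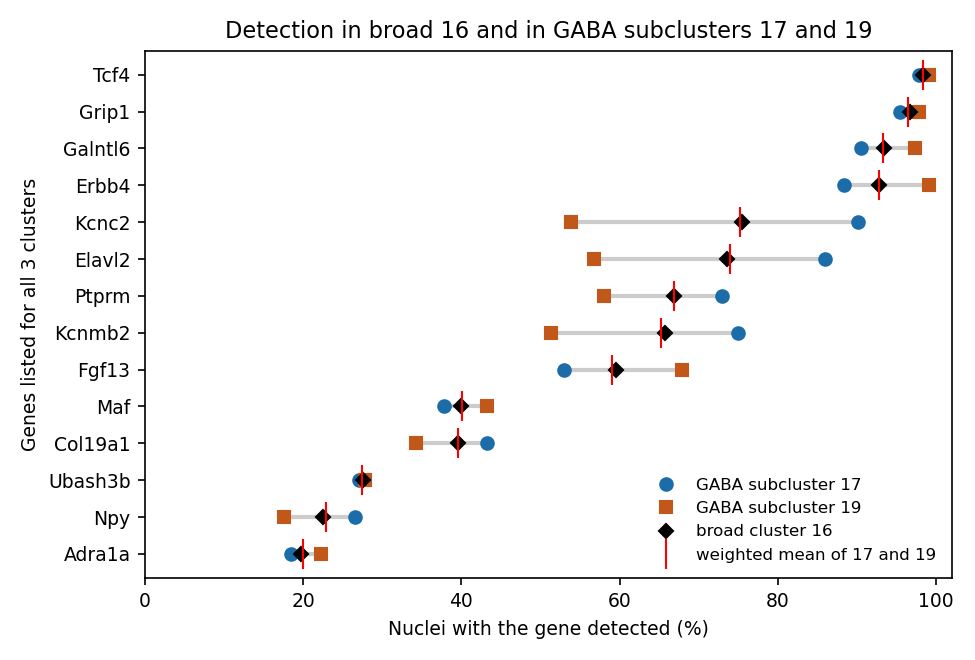
Detection of the 14 genes listed for broad cluster 16 (black diamonds), GABA subcluster 17 (blue circles) and GABA subcluster 19 (orange squares), as a percentage of nuclei, with the mean of both subclusters at a weight of 59.0% for subcluster 17 (red marks). Each diamond lies between its circle and square and within 0.44 points of its red mark.

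Other peptide genes were listed beside the 3 in 4 of the 5 clusters. Of 48 neuropeptide genes, 13 were listed in the GABA table, and 10 of these were other than Npy, Vip and Cck. Subcluster 17 listed 2 of the 10, Sst and Cort, and subcluster 19 listed 2, Tac2 and Crh, against 7.09% of all the table's genes in each. Broad cluster 16 listed 3 of 10 others, Cort, Tac2 and Crh, Sst subcluster 6 listed 1 of 5, Cort, and broad cluster 7 listed 0 of 10. The share of all the table's genes listed was 6.00% in each broad cluster and 14.2% in Sst subcluster 6. Beside these shares, the counts of 1 of 5 and 0 of 10 say little. Among the 21 peptide rows of the GABA table, detection of Cck in subcluster 19 ranked 6, of Npy in subcluster 17 ranked 7, of Vip in subcluster 19 ranked 9 and of Npy in subcluster 19 ranked 14. The first 5 places were rows of Sst and Nts. Tac2 and Crh had larger log2 fold changes than Vip in subcluster 19 of the authors' deposited table, at 9.32 and 8.52, from detection of 8.5% and 3.0% inside and 0% outside.

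About receptors of these peptides the tables say little. Of 10 receptor genes for neuropeptide Y, vasoactive intestinal peptide and cholecystokinin, 1 was listed in any table. It was Npy2r in GABA subcluster 6, at 1.1% against 0.1% with a log2 fold change of 4.07 in the authors' deposited table. The 8 close relatives of the peptides, such as Pyy, Adcyap1 and Gast, were listed in 0 clusters. The number of genes measured was not given in the sources used here, so neither count has a share of all genes beside it. Of 25 genes of peptide processing and secretory granules, 6 were listed in any table. Broad clusters 7 and 16 each listed 1 of the 5 in their table, GABA subclusters 17 and 19 listed 0 of 3, and Sst subcluster 6 listed the 1 in its table. The share of all the table's genes listed was 6.00% in each broad cluster, 7.09% in each GABA subcluster and 14.2% in Sst subcluster 6. With so few genes, these counts say little about processing genes. The amidating enzyme gene Pam in the authors' deposited table was listed with Npy in Sst subcluster 6 (2.35, 81.8% against 35.1%) and in broad cluster 16 (1.49, 74.3% against 46.1%), and for 5 further clusters that list none of the 3 peptides. In broad cluster 7, the proprotein convertase gene Pcsk5 was listed with Cck in the authors' deposited table (2.76, 47.8% against 8.3%), and it was also listed for cluster 23 (3.36, 65.6% against 9.8%).

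The genes closest to each peptide in their set of listing clusters were found with the Jaccard index over the 55 clusters. For Npy, 3 genes had the identical set of 4 clusters, namely the transcription factor gene Maf, the adrenergic receptor gene Adra1a and the phosphatase-related gene Ubash3b. Col19a1, a collagen gene, followed at 0.80 and Moxd1 at 0.75. Maf was detected in 37.8% of GABA subcluster 17 against 1.4% outside and in 43.2% of subcluster 19 against 1.5% in the authors' deposited table. Unlike Npy, Maf had nearly equal log2 fold changes in subclusters 17 and 19, at 5.23 and 5.09 in the authors' deposited table. For Vip, 6 genes had the identical pair of clusters, and the 5 closest in log2 fold change were Npas1, Tac2, Crh, Hapln1 and Pde5a. For Cck no gene shared both clusters alone, and the highest index, 0.50, was tied over 20 genes, each listed for 1 of the pair. Prox1 of subcluster 19 was the nearest of these in log2 fold change, followed by 9530026P05Rik, A830018L16Rik, Nptxr and Slc30a3 of broad cluster 7.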

How the data were processed

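Nuclear RNA was sequenced with version 3 of a droplet kit, per the labels' protocols. Seurat 4 and mm10 are named in the submitters' processing notes. Aligner, filters, treatment of doublets, clustering settings, test and choice of the 50 genes per cluster were not given in the sources used here. For every listed gene the deposited tables hold a log2 fold change and the fraction of nuclei with detection inside and outside, to 3 decimals, per the file headers, printed here as percentages. The deposited p-values come from the authors' test over nuclei and served only as a filter. Depth and numbers of nuclei are unknown.

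The broad, GABA and Sst tables hold 834, 705 and 353 genes. Cluster shares were solved by least squares from genes listed for 2 or more clusters (286, 258 and 42 genes), since overall detection must be equal from each. The recovered shares summed to 100.36%, 100.60% and 99.93%. On simulated tables the largest error was 0.059, 0.088 and 0.10 points. Those simulated tables started from the recovered shares and had rounding as their only error, so they do not cover other errors in the deposited values. Intervals cover rounding of a gene's own detection values only, with the cluster share held fixed. The genes named were all rows of Npy, Vip and Cck, the 8 genes of largest log2 fold change detected in at least 25% of each listing cluster, listed members of the gene lists, and the 5 genes closest to each peptide by Jaccard index. Members and lists were chosen with earlier results of these data known. Alternatives were other rankings, stricter filters and other share solutions. Scripts ran under Python 3.11.15 with matplotlib 3.10.9, scipy 1.17.1, pandas 2.3.3 and numpy 2.4.6.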

Additional observations from a re-analysis of the deposited data

How the results depend on the processing

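The shares of detecting nuclei held by each listing cluster stayed within their rounding intervals with non-negative shares, with shares summing to 100% and without the equations of Npy, Vip and Cck. With the GABA table's size taken from broad cluster 14 and GABA subcluster 13 instead, an alternative chosen after seeing the data, that table held 77.3% of the nuclei with Npy, 83.1% of those with Vip and 39.8% of those with Cck. Every row has an adjusted p under 0.001, so a filter at that value could change nothing. A minimum log2 fold change of 2 moved none of the counts of shared genes, interneuron genes, neuropeptides or excitatory genes by more than 1.5 times, but it removed Pam from broad cluster 16, which left 0 processing genes there. Counts over gene lists include Npy, Vip and Cck here. Requiring detection of at least 25% inside left 18 genes shared by broad cluster 16 and GABA subcluster 19. The same filter left 2 medial eminence genes, 1 caudal eminence gene and 0 neuropeptides in broad cluster 16, 5 medial eminence genes and 1 neuropeptide, Npy, in Sst subcluster 6, and 1 medial eminence gene, Maf, 4 caudal eminence genes and 1 neuropeptide, Cck, in GABA subcluster 19. These drops follow from the filter, since most peptide genes were detected in fewer nuclei. By detection ratio with 0.01 added, the ranks of the 8 rows were 1 to 17, with Vip first in GABA subcluster 19. No paired analysis was possible because the tables hold no values per library, and for the same reason no library could be left out.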

Other observations

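Receptor genes were listed beside the peptides in GABA subcluster 19, and they were picked after their values were seen, apart from Htr3a. The nicotinic receptor gene Chrna7 in the authors' deposited table was detected in 31.2% of that subcluster against 5.5% outside, the growth factor receptor gene Egfr in 25.6% against 1.7%, and Adra1a in 22.2% against 2.2%. In subcluster 17 the delta opioid receptor gene Oprd1 was detected in 16.1% against 0.7% in the authors' deposited table.

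Npas1, whose set of listing clusters equals that of Vip, had values that differ between the tables. Its detection in the authors' deposited table was 20.1% in GABA subcluster 19 but 5.3% in broad cluster 16, where subcluster 19 alone would give 8.24%. Of 532 genes listed in both the broad and GABA tables, Npas1 was the only one whose overall detection in the GABA part exceeded that in all nuclei beyond rounding, at 0.419% or more against 0.255% or less. Lgals1 stood out in the same way between GABA subcluster 17 and Sst subcluster 6, with detection of 2.7% and 8.6% in the authors' deposited table. The other genes not equal between these clusters, Il1rapl1 and Xkr4, differed by 0.3 points each. Lgals1, Il1rapl1 and Xkr4 were singled out after their values were seen, and the source of these differences was not tested.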
